A study of Homo sapiens with 8 samples.

Results

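The PCNA peaks of MCF10A cells were compared between 1 h and 2 h after a thymidine block was lifted, on the 22 autosomes. These peaks came from chromatin immunoprecipitation–sequencing (ChIP-seq), in which DNA bound to a protein is pulled down with an antibody and sequenced, and a peak is a stretch where pulled-down reads exceed the local background. Every autosomal peak of the 2 lists was taken, 475 of 562 at 1 h and 2312 of 2768 at 2 h, thus 2787 of the 3330 peaks listed for these cells and of the 4020 peaks of all 4 lists of the series. A peak was placed in the class listed at both times when it shared at least 25% of its length with a peak of the other list and covered at least 25% of that peak, and otherwise in the class listed at 1 h only or at 2 h only. Positions are on hg19.

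MCF10A is a human line of breast epithelial cells that do not form tumours. The cells were arrested by a double thymidine block, which stops cells at the start of DNA replication, and collected 1 h or 2 h after release, with 2 anti-PCNA libraries per time point and whole-cell lysate as control. The series also holds *TUBG*-shRNA-MCF10A cells, the same line with a stable short hairpin RNA against γ-tubulin, released for 1 h or 2 h, with 2 libraries each. The authors deposited 1 list per condition, made from both of its libraries, so the spread between replicates cannot be seen and no test between time points was made. The intervals given here are 95% intervals, Wilson for shares and exact binomial for ratios of peak numbers. They cover counting error only, and they are too narrow because neighbouring peaks are not independent.

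PCNA is the sliding clamp of DNA replication. It is loaded as a ring around DNA where a primer begins, holds the replicative polymerases on their template and serves as a platform for repair and chromatin assembly factors. Pericentromeres, the regions that flank the centromere, are rich in satellite repeats and compact heterochromatin, and reads from near-identical repeats cannot always be assigned to the copy they came from.

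By this criterion most 1 h peaks were listed again at 2 h, whereas few 2 h peaks had been listed at 1 h. With an overlap of 50% of both peaks the shares were 48.4% of 1 h peaks and 9.95% of 2 h peaks. Of the 475 peaks at 1 h, 375 were at both times (78.9%, interval 75.1 to 82.4) and 100 at 1 h only. Of the 2312 peaks at 2 h, 378 were at both times (16.3%, interval 14.9 to 17.9) and 1934 at 2 h only. The shared peaks formed 386 pairs, since 11 peaks at 1 h and 8 at 2 h each matched 2 peaks of the other list. A further 39 peaks at 1 h and 89 at 2 h touched a peak of the other list without meeting the criterion, and 61 and 1845 touched none. The pair nearest above the limit lay on chromosome 1, at 10064 to 10187 at 1 h and 10030 to 10094 at 2 h, where the shared bases were 25% of the wider peak. The pair nearest below it lay on chromosome 4, at 49635298 to 49635534 and 49635294 to 49635356, with 24.9%.

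The lists differed in peak width and in read numbers, and both bear on the classes. The shortest peak was 121 bp at 1 h and 47 bp at 2 h, and 1656 of the 2 h peaks (71.6%) were shorter than any 1 h peak. A 2 h peak of the shortest width can meet the criterion only with 1 h peaks of up to 188 bp, and 186 peaks at 1 h were wider than that. The median number of reads at the summit was 61 at 1 h (range 14 to 241) and 23 at 2 h (range 5 to 94), over a median local background of 18.7 and 2.34 reads. These numbers were not scaled to the shortest widths, so they do not measure depth alone. Per kb of the shortest width, the lowest background was 15.5 reads at 1 h and 9.32 at 2 h. That lowest value was held by 1 peak at 1 h and by 96 peaks at 2 h, so the 2 values are not like measures. The effect of these differences on which peaks reached the authors' threshold was not tested. When the 2 h list was limited to its 475 strongest peaks, a choice made after seeing the data, 40.8% of the 1 h peaks were at both times.

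The peaks of both times were concentrated beside the centromeres. Pericentromeric was taken to mean within 5 Mb of the centromere block of hg19, and no autosomal peak of the 4 lists, 3388 in all, lay inside a block. At 1 h, 406 of 475 peaks were pericentromeric (85.5%, interval 82.0 to 88.4), and at 2 h, 1840 of 2312 (79.6%, interval 77.9 to 81.2). The median distance from the block was 0.514 Mb at 1 h and 0.510 Mb at 2 h. The order of the shares depended on the setting. The 2 h share stayed the lower one within 2 Mb of the block (78.9% at 1 h, 73.4% at 2 h) and with peaks within 1 kb joined (72.5% and 50.4%), and it turned with peak strength and width. With the q-value limited to 1e-05 it was 84.1% at 1 h and 86.3% at 2 h, with a limit of 1e-10 it was 83.9% and 90.9%, and the 2 h peaks at least as wide as the shortest 1 h peak were 93.8% pericentromeric.

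The 3 classes differed in where they lay. Peaks listed at both times were pericentromeric in 90.7% of cases in either list. Of those listed at 2 h only, 77.4% were pericentromeric (interval 75.5 to 79.2), and of those listed at 1 h only, 66% (interval 56.3 to 74.5). Thus a pericentromeric 1 h peak was listed again at 2 h in 340 of 406 cases (83.7%, interval 79.8 to 87.0), and a 1 h peak on a chromosome arm in 35 of 69 (50.7%, interval 39.2 to 62.2). From the 2 h side, 343 of 1840 pericentromeric peaks (18.6%) and 35 of 472 arm peaks (7.42%) had a 1 h partner. Peaks at 2 h lay closer together in pericentromeres, where 87.0% had another within 1 kb, against 15.5% on arms. How far this density raised the shares at both times was not tested. The number of peaks at 2 h over that at 1 h was 4.53 in pericentromeres (interval 4.07 to 5.06) and 6.84 on the arms (interval 5.30 to 8.94).

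**Figure D1:**
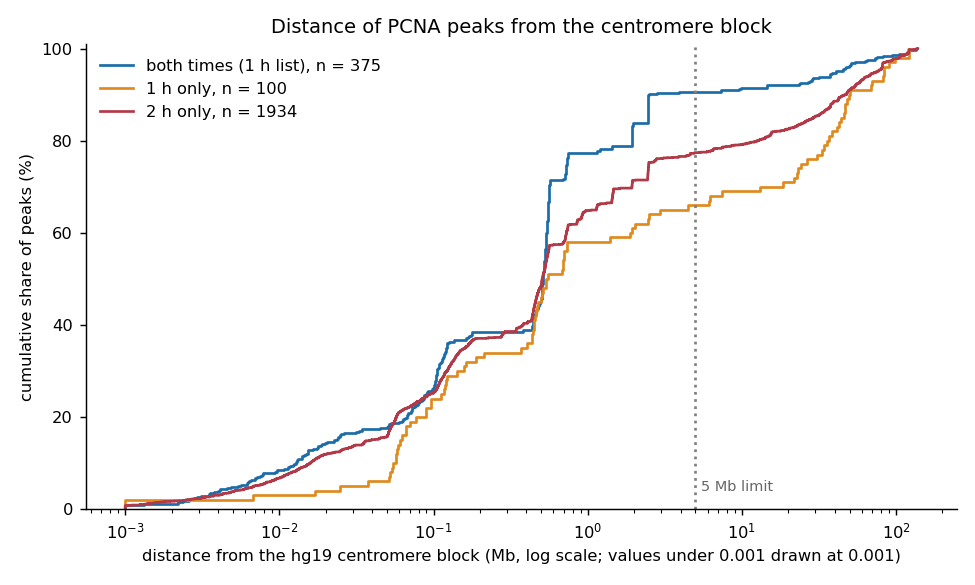
Cumulative share of autosomal MCF10A peaks (percent) against distance from the hg19 centromere block (Mb, log scale), for 375 peaks listed at both times, 100 at 1 h only and 1934 at 2 h only. The dotted line marks 5 Mb, by which 90.7%, 66% and 77.4% of the 3 classes are reached, and the steps are clusters of peaks.

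A few chromosomes held most of the 1 h peaks, and the 2 h peaks were more widely spread. Chromosomes 2, 4, 10 and 16 held 334 peaks at 1 h (70.3%) and 1221 at 2 h (52.8%). Autosomes with at least 1 pericentromeric peak numbered 13 at 1 h and 21 at 2 h, and the 8 that had none at 1 h held 129 pericentromeric peaks at 2 h. A longer list can reach more autosomes, and the 2 h list was 4.87 times as long. The spread over autosomes was not compared at equal list length. Chromosomes 15, 19 and 22 had no 1 h peak in the list and 15, 33 and 21 peaks at 2 h, and chromosome 13 was the one autosome without a pericentromeric peak at 2 h.

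Chromosome 4 had the highest share of 2 h peaks with a 1 h partner, 128 of 317 (40.4%), followed by chromosome 2 with 21.1%. It held 131 peaks at 1 h, of which 126 were at both times (96.2%, interval 91.4 to 98.4), and 317 at 2 h, a ratio of 2.42 (interval 1.97 to 2.99). Of its 1 h peaks, 93 lay in 1 cluster, and 2 h peaks covered 51.6% of the bases there. How far such coverage raised the share of 1 h peaks at both times was not tested. Chromosome 16 had a similar ratio, from 60 to 170 peaks (2.83, interval 2.10 to 3.87), but a lower share at both times (61.7%, interval 49.0 to 72.9), and its 23 peaks were the largest 1 h only group of any autosome. Chromosome 10 went from 69 peaks, 81.2% of them at both times, to 407, the most of any autosome at 2 h, and chromosome 2 from 74 peaks, 89.2% at both times, to 327. On chromosome 8 all 27 peaks of the 1 h list were listed again among 153 at 2 h. Chromosome 7 was at the other end among autosomes with at least 10 peaks at 1 h, since 7 of its 18 peaks at 1 h were at both times (38.9%, interval 20.3 to 61.4) while it held 136 at 2 h.

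Chromosomes 1 and 21 both reached 118 peaks at 2 h, from 13 and 19 at 1 h, but 43.2% of the 2 h peaks were pericentromeric on chromosome 1 and 98.3% on chromosome 21. Chromosome 20 gained the fewest for its number at 1 h after chromosomes 4 and 16, from 13 to 48 (ratio 3.69, interval 1.97 to 7.43). Chromosomes 5, 3, 6 and 12 went from 13, 8, 7 and 4 peaks to 71, 43, 49 and 29. Chromosomes 9, 11 and 17 went from 4, 6 and 4 peaks to 50, 76 and 50, and chromosomes 18 and 14 from 3 and 1 to 43 and 22. The ratios of these 5 chromosomes were 12.5, 12.7, 12.5, 14.3 and 22, each with a wide interval because of the few peaks at 1 h. Chromosome 3 kept a low pericentromeric share, with 11 of its 43 peaks at 2 h near the block and none of 8 at 1 h.

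**Figure D2:**
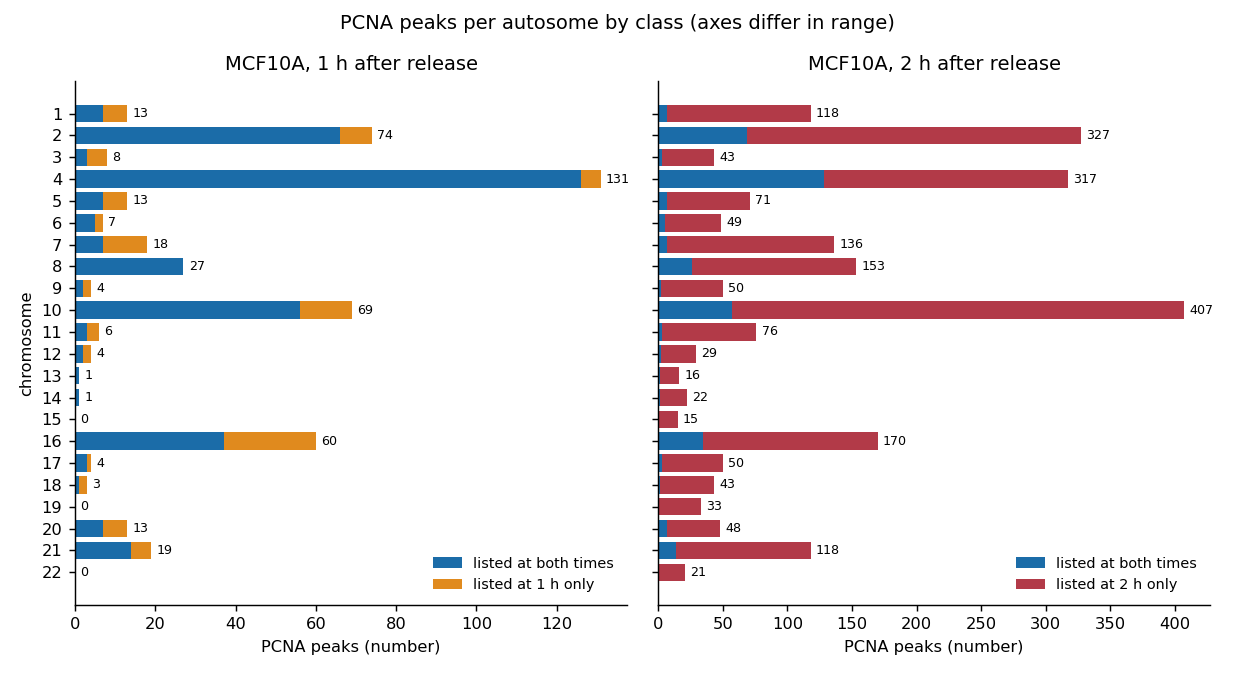
Number of PCNA peaks per autosome in MCF10A cells at 1 h (left) and 2 h (right), as bars split into peaks listed at both times and at 1 time only. The 2 horizontal axes differ in range. Chromosome 4 leads at 1 h with 131 peaks and chromosome 10 at 2 h with 407.

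In the pericentromeres most 2 h only peaks lay in groups that also held 1 h peaks, and on the arms most stood alone. Grouping near the centromere was shared by all peaks, since another peak of the same list lay within 10 kb of 94.6% of pericentromeric and 7.25% of arm peaks at 1 h, and of 96.1% and 19.5% at 2 h. When all peaks within 10 kb of each other were joined, 594 clusters formed, of which 72 held peaks of both lists, 483 had no 1 h peak and 39 no 2 h peak. Of the 1497 pericentromeric 2 h only peaks, 76.8% lay in a cluster with 1 h peaks, 18.4% in a cluster of 2 h peaks alone and 4.74% by themselves. Of the 437 on arms, 6.64% lay in a cluster with 1 h peaks, 12.8% in one of 2 h peaks alone and 80.5% by themselves. In the shared clusters, 802 of the 2 h only peaks (68.0%) lay between the first and the last 1 h peak and 377 (32.0%) beyond them.

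Distances between single peaks gave a like picture. Another 2 h peak lay within 1 kb of 84.7% of the pericentromeric 2 h only peaks and of 15.3% of those on arms. Over all 2 h peaks these shares were 87.0% and 15.5%, and for 2 h peaks at both times 96.8% and 17.1%, so close neighbours were not particular to the 2 h only class. A 1 h peak lay within 10 kb of 70.3% and 6.64%. In neighbouring peaks up to 1 kb apart, the median distance between summits was 502 bp at 1 h (205 neighbours) and 351 bp at 2 h (1426 neighbours). The chromosomes cut into windows of 1 Mb had a 1 h peak in 91 windows and a 2 h peak in 429. Among the 63 windows with both, 37 held more peaks at 2 h, 25 as many and 1 fewer.

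The 5 clusters with the most 2 h only peaks held 464 of them (24.0%), all in pericentromeres. They also held 34.3% of all 1 h peaks and 26.7% of all 2 h peaks. The first, on chromosome 10 from 42354965 to 42409290, had 38 peaks at 1 h and 144 at 2 h. All but 1 of its 1 h peaks lay in its first 25704 bp, and 27 of its 109 2 h only peaks followed the last 1 h peak. The second, on chromosome 4 from 49093269 to 49158624, had 93 and 197 peaks, and all of its 105 2 h only peaks lay between 1 h peaks that spanned the whole stretch. Peaks covered 35.5% of its bases at 1 h and 51.6% at 2 h.

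In the cluster on chromosome 2, from 92267616 to 92326147 beside the centromere block, the 6 peaks at 1 h lay in 10.2 kb near its centromeric end. Of its 84 peaks at 2 h only, 69 lay beyond that span, 53 of them on the side away from the centromere. Here the coverage was 1.56% at 1 h and 23.1% at 2 h. Chromosome 21 from 10775238 to 10860622 had 17 and 102 peaks, and chromosome 10 from 39076709 to 39154305 had 9 and 86. In both, short peaks with a median width of 66 and 61 bp at 2 h were spread along the stretch, and most 2 h only peaks, 73 of 89 and 72 of 77, lay between 1 h peaks.

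Some dense clusters had no 1 h peak in the list. The largest held 25 peaks each, on chromosome 10 from 42527534 to 42546146 and on chromosome 7 from 61967194 to 61992249. Clusters of 23 peaks each followed on chromosome 18 from 18511071 to 18520329 and chromosome 19 from 27731955 to 27749869. All 4 were pericentromeric, with a median fold enrichment (the reads at the summit over the local background, with a pseudocount of 1 added to both) between 2.92 and 3.63. Their median backgrounds of 11.1 to 19.9 reads were above the 2.34 reads of the 2 h list as a whole.

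The clusters with the most 1 h only peaks lay on chromosome 16 from 46385840 to 46455926, with 18 of its 50 peaks at 1 h only and 52 of 82 at 2 h only, and on chromosome 7 from 61739568 to 61758137, with 5 of 6 and 13 of 14. The chromosome 10 cluster with 144 peaks at 2 h and the chromosome 21 cluster had 4 each. The chromosome 16 cluster had a median background of 126 reads at 1 h and 15.8 at 2 h, and a median fold enrichment of 1.63 and 3.40. The chromosome 7 cluster had a background of 4.42 and 0.879 reads and a fold of 3.94 and 7.29. Reads and folds of the 2 lists were not brought to 1 scale here.

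**Figure D3:**
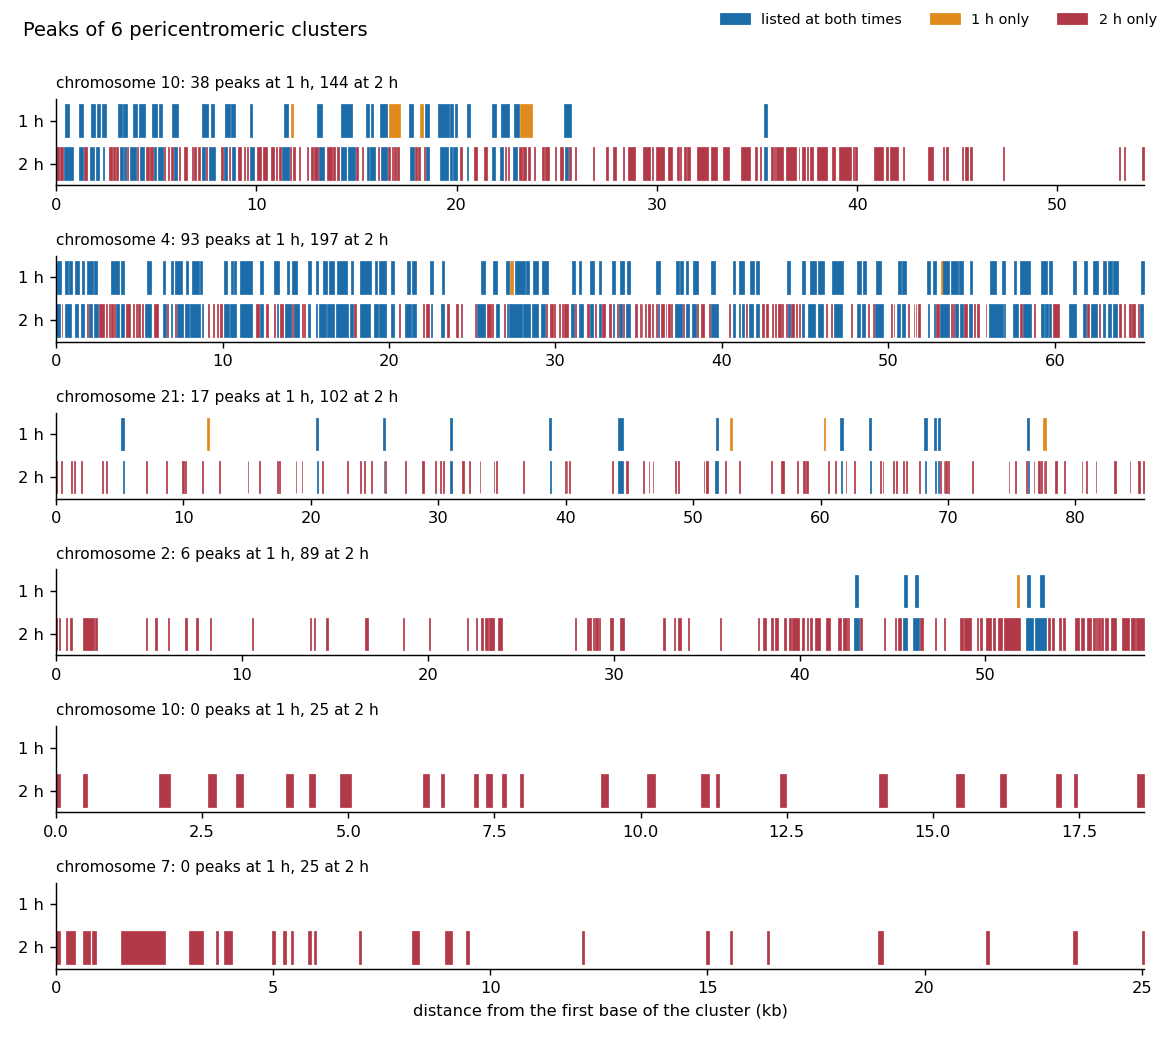
Peaks of 6 pericentromeric clusters by distance from the first base of the cluster (kb), 1 h above and 2 h below in each panel, with bar width as peak width. Peaks at 2 h fill the gaps between 1 h peaks on chromosomes 4 and 21. In the first panel, on chromosome 10, they fill such gaps and also run on past most 1 h peaks. On chromosome 2, 53 of 84 peaks at 2 h only lie before the first 1 h peak and 16 after the last. Peaks at 2 h stand without 1 h peaks in the last 2 panels, with 25 peaks each.

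Stronger peaks were more often at both times, at 2 h above all. In 4 about equal parts of the 2 h list by −log10 q, from weakest to strongest, 3.56%, 7.58%, 15.9% and 38.2% were at both times. In the 1 h list the shares were 68.1%, 76.3%, 85.7% and 85.7%. Among the strongest part of the 1 h arm peaks, 10 of 19 were at both times (52.6%, interval 31.7 to 72.7), against 92 of 100 in pericentromeres (92%, interval 85.0 to 95.9). Within that part, peaks were not matched for strength, width or the density of 2 h peaks around them. Why the share was lower on arms was not tested.

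The 2 classes of 1 h peaks had different makeup. Those at both times had a median of 67 reads at the summit over a background of 21.6, a fold of 2.90. Those at 1 h only had 33 reads over 5.90, a fold of 4.05, and a lower −log10 q of 6.35 against 8.43. At 2 h, peaks at both times had 37 reads over 3.51 (fold 7.51, −log10 q 17.1) and peaks at 2 h only 21 reads over 2.34 (fold 5.60, −log10 q 7.75). Fold enrichment therefore stood higher in the 1 h only class than in the shared class at 1 h, and lower in the 2 h only class than in the shared class at 2 h.

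Peak width separated the classes at 2 h. The median width was 184 bp (quartiles 99.2 and 288) for 2 h peaks at both times and 69 bp (quartiles 52 and 109) for those at 2 h only. Of the 2 h only peaks, 79.5% were shorter than the shortest 1 h peak, and 202 were at the shortest width of the list, where 206 peaks lay in all. The share at both times went from 4.93% of 2 h peaks under 75 bp (interval 3.81 to 6.36) to 59.5% of those of 300 bp or more (interval 51.4 to 67.0). At 1 h the medians were 178 bp for peaks at both times and 138 bp for peaks at 1 h only, and the share went from 72.7% below 188 bp to 92.2% at 300 bp or more. Part of this follows from the criterion, which a short peak cannot meet with a wide one. Pericentromeric peaks were also the wider ones, with a median of 179 bp against 130 bp on arms at 1 h and 84 bp against 61 bp at 2 h.

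The distance between the summits of paired peaks is bounded by the overlap that made them a pair. Its median was 23 bp (quartiles 6 and 71, maximum 841), and 252 of 386 pairs (65.3%) were within 50 bp. Neither direction prevailed, with the 2 h summit at the higher coordinate in 198 pairs, the lower in 177 and the same base in 11. On arms the median was 20 bp over 35 pairs, with median widths of 130 bp at 1 h and 79 bp at 2 h, and in pericentromeres 23 bp over 351 pairs, with widths of 186 and 198 bp. Matching by summits within 100 bp in place of overlap, which does not use peak width, gave 76.4% of 1 h peaks and 16.3% of 2 h peaks at both times. Such matching still depends on how densely summits lie. Neighbouring 2 h peaks up to 1 kb apart had a median of 351 bp between summits.

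Across pairs, the backgrounds of the 2 lists went together more than the enrichments. Spearman's rho over the 386 pairs was 0.810 for the background, 0.485 for width, 0.373 for fold and 0.109 for −log10 q. The points share libraries within each list and many lie in the same clusters, so these are descriptions. The fold was higher at 2 h in 376 of 386 pairs, but as the lists differ in shortest width and background, folds of the 2 time points are not on 1 scale.

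Within the peak, summits lay in the middle more often than at the edges. When the width was cut into 5 equal parts, the middle one held the summit in 33.9% of 1 h peaks at both times, 34% of those at 1 h only and 36.8% of those at 2 h only. In the wider 2 h peaks at both times the share was 26.5% (interval 22.3 to 31.1), below that of the 2 h only peaks (interval 34.7 to 39.0).

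**Figure D4:**
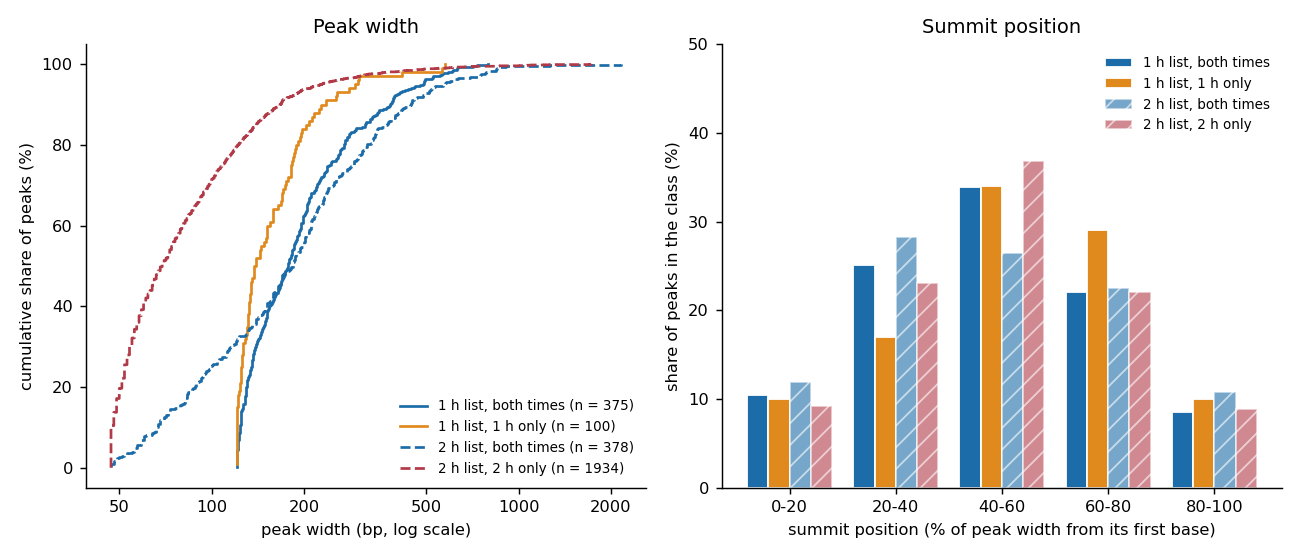
Left, cumulative share of peaks (percent) against peak width (bp, log scale) by list and class. Right, share of each class (percent, bars) with the summit in each of 5 equal parts of the peak's width. The 2 h only curve lies far to the left, with a median of 69 bp against 184 bp at both times, and all classes are highest or near highest in the middle.

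The 3 strongest peaks of each class in pericentromeres and on arms are given as examples and need not be typical of their class. Among peaks at both times, the 3 with the highest −log10 q at 2 h were on chromosome 4. The first, at 49156445 to 49156644, had 64 reads over a background of 2.34 at 2 h (fold 19.4, −log10 q 59.2), and its partner 127 reads over 52.2 at 1 h (fold 2.41, −log10 q 12.7). The others, at 49108429 to 49108513 and 49119682 to 49119861, had folds of 19.8 and 17.9 at 2 h and of 2.00 and 2.24 at 1 h, with summits 1 and 13 bp apart. All 3 lay in the chromosome 4 cluster with 197 peaks at 2 h.

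On arms, the strongest peaks at both times were at 224201437 to 224201506 and 726300 to 726379 on chromosome 1 (48 reads over 2.34 and 50 over 2.93 at 2 h, 58 over 24.6 and 47 over 20.7 at 1 h). The next, at 109815792 to 109816309 on chromosome 2, had 62 reads over 9.37 at 2 h and 139 over 40.3 at 1 h. Its fold was 6.07 and 3.39, and its −log10 q 24.5 and 26.5.

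The 3 strongest 1 h only peaks in pericentromeres and the 3 strongest on arms are named here. Among these 6, 3 lay far from any 2 h peak and 3 beside or across one. On chromosome 12, the peak at 79438307 to 79438450 had 39 reads over 2.95 (fold 10.1), and the nearest 2 h peak was 595 kb away. On chromosome 20, that at 23409249 to 23409417 had 34 reads over 2.30 (fold 10.6), 165 kb from any 2 h peak, and on chromosome 16, that at 82013618 to 82013749 had 34 over 2.95 (fold 8.86), 5893 kb away. The peak at 29817887 to 29818023 on chromosome 20 (36 reads over 4.29) had a 2 h peak 0.0610 kb away. Those at 49120524 to 49120704 on chromosome 4 (fold 3.80) and 116418649 to 116418837 on chromosome 3 (fold 4.60) overlapped a 2 h peak by less than the criterion.

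Among 2 h only peaks, the strongest lay near other peaks in the pericentromeres. On chromosome 20, the peak at 29814109 to 29814192 had 42 reads over 0.586 (fold 27.1, −log10 q 55.0) and lay 3.56 kb from a 1 h peak. On chromosome 4, those at 49128826 to 49128974 (fold 21.8) and 49639061 to 49639527 (fold 17.9) lay 0.341 and 0.0330 kb from one. On arms, the peaks at 224199436 to 224199596 on chromosome 1 (fold 13.1) and 132072983 to 132073041 on chromosome 12 (fold 16.4) lay 1.73 and 0.0170 kb from a 1 h peak. That at 97184382 to 97184460 on chromosome 8 (fold 13.1) was 11805 kb from the nearest. Hence 5 of these 6 peaks lay within a few kb of a place already listed at 1 h. Over the whole class, 70.3% of the pericentromeric and 6.64% of the arm peaks lay within 10 kb of a 1 h peak. The strongest arm peaks were thus not typical of their class.

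A pair of further places stood out at 2 h and were chosen after their values were seen. On chromosome 1, 10 peaks between 564478 and 569418, with a median fold of 3.32, were listed at 2 h and none at 1 h. This stretch is known to carry a nuclear copy of mitochondrial DNA, and 23 peaks on the mitochondrial genome were also listed at 2 h and none at 1 h. Whether these peaks share their reads was not tested. The first 100 kb of the chromosomes held 4 peaks on 2 chromosomes at 1 h and 9 on 5 chromosomes at 2 h, with 2 at both times in each list.

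The classes also differed in how often they met the peaks listed in *TUBG*-shRNA-MCF10A cells, which had no part in the classing. By the same criterion, 30.1% of all 1 h peaks overlapped the 1 h list of these cells and 38.9% their 2 h list, and of all 2 h peaks 7.87% and 11.7%. Of the 2 h peaks at both times, 31.5% (interval 27.0 to 36.3) met the 1 h list and 41.8% (interval 36.9 to 46.8) the 2 h list. Of those at 2 h only, 3.26% (interval 2.55 to 4.15) and 5.84% (interval 4.88 to 6.98) did so.

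The 2 classes of the 2 h list also differed among strong peaks. In the upper part of the 2 h list, above the median −log10 q of 8.84, 46.0% of the peaks at both times and 9.25% of the 2 h only peaks met the 2 h peaks of the *TUBG*-shRNA-MCF10A cells. The same overlap criterion had made the classes, and their median widths were 184 bp at both times and 69 bp at 2 h only. The shares were not matched for width or for peak density, so part of the difference may follow from the criterion.

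The classes of the 1 h list lay closer together. Of the 1 h only peaks, 22% met their 1 h list (interval 15.0 to 31.1) and 18% their 2 h list (interval 11.7 to 26.7), against 32.3% and 44.5% of the 1 h peaks at both times. The intervals for the 1 h list overlapped there and those for the 2 h list did not. Within pericentromeres the shares for the 1 h list were 31.8% and 34.7%, and for the 2 h list 25.8% and 47.1%. Over all autosomes, the shares below the median −log10 q of 8.03 were 27.3% and 28.1% for the 1 h list and 24.2% and 40.9% for the 2 h list. From that median up, they were 11.8% (4 of 34, interval 4.67 to 26.6) and 35.8% (interval 29.5 to 42.6) for the 1 h list. For the 2 h list they were 5.88% (2 of 34, interval 1.63 to 19.1) and 47.5% (interval 40.8 to 54.4). Among the stronger peaks the 2 classes thus lay further apart. On arms few peaks met these lists, with 1 of 34 peaks at 1 h only and 11 of 437 at 2 h only in the 2 h list. The *TUBG*-shRNA-MCF10A lists are shorter, with 260 and 341 autosomal peaks, which limits how many could be met.

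**Figure D5:**
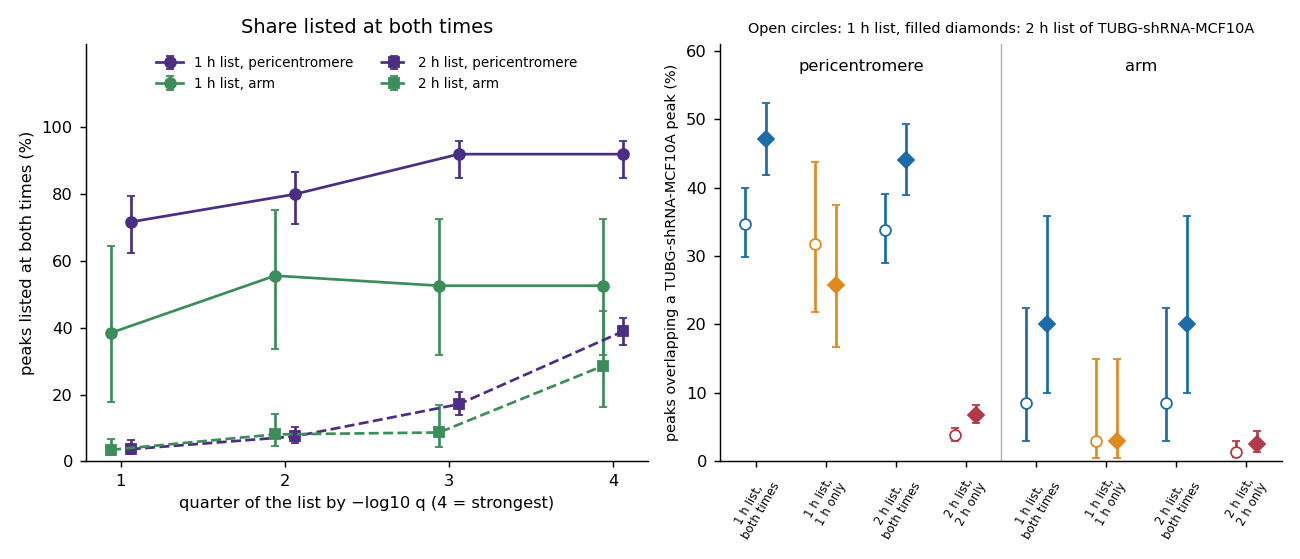
Left, share of peaks at both times (percent) in 4 about equal parts of each list by −log10 q, for pericentromere and arm. Right, share of each class (percent) with an overlapping peak in *TUBG*-shRNA-MCF10A cells, open circles for their 1 h list and filled diamonds for their 2 h list. Bars are 95% Wilson intervals for counting error. Shares rise with strength in the 2 h list, from 3.56% to 38.2% over all autosomes, and the 2 h only class meets few peaks, 3.26% and 5.84% over all autosomes.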

How the data were processed

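PCNA ChIP-seq peaks of MCF10A cells at 1 h and 2 h after release were analysed, 2 libraries per time point. The submitters' processing notes name Bowtie 1.0.0, MACS2 2.1.1, bedtools 2.17.0 and hg19. The threshold and the treatment of duplicate reads are not given in the sources used here. Per the series description, the authors made each list from both libraries of a condition, with whole-cell lysate as control. The peak caller was MACS2, and how the libraries were combined is not given in the sources used here. The deposited lists hold positions and summits, a fold enrichment (a ratio) over the local background, and the −log10 p-value and −log10 q-value at the summit. A deposited whole-number score, the q-value on another scale, was not used.

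From these, peaks were classed by an overlap of 25% of both peaks, located against the centromere blocks of hg19 (a table entered from general knowledge of the assembly, within 5 Mb), and joined into clusters within 10 kb. Reads at the summit and the background were solved from fold (pseudocount 1) and Poisson p-value within 0.0003 in −log10 p, which gave whole read numbers in 100% of peaks. Steps were tested on simulated data with scipy 1.17.1, numpy 2.4.6, matplotlib 3.10.9 and pandas 2.3.3 under Python 3.11.15.

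The peaks named are the 3 with the highest −log10 q in each class and location (from the 2 h list for peaks at both times). The clusters named are the 5 with the most 2 h only peaks, the 3 largest without a 1 h peak and the 3 with the most 1 h only peaks, ties included. Each autosome with at least 20 peaks at 2 h is named. The members, limits and lists were chosen with earlier results of these data known. Alternatives tried were other overlaps and summit matching, stricter q-values, wider peaks, other distances, joined peaks, and leaving out chromosome 4 or 10. Peaks on chromosomes X and Y and the mitochondrial genome were left out of the comparison. Gene annotation and sequence of hg19 were not used here.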

Additional observations from a re-analysis of the deposited data

Results flagged for a closer look

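Peaks outside the autosomes, which the comparison left out, were present in both lists of MCF10A cells. Chromosome X held 24 peaks at 1 h and 155 at 2 h, and 16 of them in each list were at both times. Chromosome Y held 63 peaks at 1 h and 278 at 2 h, of which 57 in each list were at both times. The share of 1 h peaks at both times was 66.7% on X (interval 46.7 to 82.0) and 90.5% on Y (interval 80.7 to 95.6). The mitochondrial genome held 23 peaks at 2 h, with a median fold of 2.00, and none at 1 h. These peaks drew attention as entries that the comparison did not use, and no cause was tested. Whether their reads came from the chromosome or genome they are listed on was not tested either.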

How the results depend on the processing

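No paired analysis was possible because the 2 libraries of a time point share 1 list of peaks, and for the same reason no replicate could be left out. Of 54 alternative values, 17 stayed within the counting interval of the reported share and 37 did not. The share of 1 h and of 2 h peaks at both times was 48.4% and 9.95% with an overlap of 50% of both peaks, 87.2% and 20.2% with any overlap, and 84% of 1 h peaks with 25% of the 1 h peak alone. It was 69.6% and 11.9% at a q-value of at most 1e-10, and 72.4% and 12.5% without chromosome 4. Of the 2 h peaks at least as wide as the shortest 1 h peak, 39.5% were at both times. The pericentromeric share at 1 h and 2 h was 78.9% and 73.4% within 2 Mb and 72.5% and 50.4% with peaks within 1 kb joined. At 2 h alone it moved to 81.2% within 10 Mb, 93.8% for the wider peaks, 86.3% and 90.9% at q-values of at most 1e-05 and 1e-10, and 76.6% without chromosome 10, and at 1 h to 80.5% without chromosome 4. The share of 2 h only peaks within 1 kb of another 2 h peak, 69.0% as reported, was 75.3% and 77.8% at these q-values, 64.8% without chromosome 10, 78.0% within 10 kb and 42.1% within 0.2 kb. The share within 10 kb of a 1 h peak, 55.9% as reported, was 61.4% and 59.9% at these q-values, 53.3% without chromosome 4, 52.1% without chromosome 10, 32.1% within 1 kb and 62.7% within 100 kb. In 2 alternatives chosen after seeing the data, the strongest 475 peaks at 2 h gave 40.8% and 41.1% at both times, 94.1% pericentromeric at 2 h and 82.5% of 2 h only peaks within 10 kb of a 1 h peak, and joining peaks within 200 bp in each list gave 51.5% and 13.2% at both times. The causes were not tested. The effect of depth on which weak peaks were listed was not tested, and listing at 1 time only does not show that PCNA was lacking there at the other.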
